A study of Mus musculus with 14 samples.

Results

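The genes described here take part in ribosome biogenesis and in transcription by RNA polymerase I. They were chosen by name as a list of 43 genes, with earlier results of these data known. Each was read from the brightest probe set annotated with that 1 symbol. This gave 42 members among the 19938 genes of the arrays, and Noc2l, which had no probe set of its own, was not analysed here. Ribosomes are built mainly in the nucleolus. RNA polymerase I copies the ribosomal DNA into a long precursor RNA, small nucleolar ribonucleoproteins (snoRNPs) guide its chemical modification, and assembly factors cut, fold and load it with proteins into the small and the large subunit. In growing lymphocyte precursors this pathway runs at a high rate, cytokines such as IL-7 support that growth, and the transcription factor MYC is known as an activator of many of its genes.

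The arrays profiled RNA of BH1-Bcl2-Ik1ER, a mouse pre-B cell line without Ikaros, which is a DNA-binding zinc finger regulator of lymphoid development. All arrays are from this 1 line, in which retroviruses deliver Bcl2, a blocker of apoptosis, and Ikaros joined to an estrogen receptor, and the doubly transduced cells were sorted before use. The 7 groups had 2 arrays each, 1 from each of 2 independent experiments: time 0, 6 h with 4-hydroxytamoxifen (4OHT) and either with or without IL-7, and, at 24 h, the 4 combinations of 4OHT or none with IL-7 or none. 4OHT, which switches the fusion on, was used at 100 nM, and IL-7 came from 8% conditioned medium that was left out for withdrawal. The growth medium of the time 0 cells is described only by the general protocol. No group at 6 h lacked 4OHT and no cells without the fusion were on the arrays, so the drug, the fusion's activity and, at 6 h against time 0, the culture itself cannot be told apart. The series set out to find genes under the control of Ikaros and IL-7.

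Values are log2 expression levels normalized by the robust multi-array average (RMA), and array medians lay between 7.23 and 7.43. Precision is limited by how few arrays there are: the standard error (SE) of a log2 difference was 0.09 in the median gene. All 8 pre-B markers with a probe set were read between 8.45 and 13.9, above the median of 7.33 over all values, and the 5 T cell markers between 5.11 and 7.38. Of the 10 markers of myeloid, erythroid, plasma and stromal cells the highest reading was 9.12, for Sdc1, which fell at 6 h without IL-7 by 0.64 ± 0.11 (adjusted p = 0.00135). Pre-B markers moved in both directions: on IL-7 withdrawal 2 rose and 1 fell at 6 h, 5 rose at 24 h without 4OHT, and 5 rose and 2 fell at 24 h with it. With 4OHT at 24 h, 4 rose and 3 fell without IL-7, among them Cd79a (0.77 ± 0.09, adjusted p = 7.25e-05) and Vpreb1 (-1.34 ± 0.08, adjusted p = 3.02e-07), and 4 rose and 2 fell with IL-7. The mean level of the 8 pre-B markers stayed between 12.01 and 12.35 on all arrays. Both plasma cell markers, Sdc1 and Prdm1, fell with 4OHT at 24 h without IL-7. On withdrawal at 24 h without 4OHT they went opposite ways, with Sdc1 lower and Prdm1 higher. Of the 4 myeloid markers Itgam alone passed on withdrawal at 24 h, higher without 4OHT (0.60 ± 0.16) and with it (0.84 ± 0.16). The part of these shifts in the results below was not tested. Ikzf1, the gene of Ikaros, was read between 13.02 and 13.38 on all arrays, and whether its probes see the fusion was not tested. RMA sets arrays to a common distribution, so differences are relative to the bulk of genes. In such bulk RNA, fewer cells expressing a gene and less of its RNA per cell cannot be told apart. Differences below are on the log2 scale, ± SE with 2 arrays per group, and passing means an adjusted p (Benjamini-Hochberg) under 0.05 in limma's test over all 19938 genes. Shares over all genes are from the main fit of all 14 arrays, and none were taken for the alternative fits.

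Across the 7 groups the members moved together. Their median level was 10.34 and 10.16 at time 0 in experiments 1 and 2, 10.76 and 10.63 at 6 h with IL-7 and 4OHT, and 9.26 and 9.11 at 6 h with 4OHT and no IL-7. At 24 h with IL-7 it was 10.53 and 10.47 without 4OHT and 10.48 and 10.42 with it. At 24 h without IL-7 it was 9.88 and 9.89 without 4OHT and 9.31 and 9.07 with it. The 3 groups with IL-7 in the labels therefore lay above time 0, and the 3 groups without it lay below. The highest group mean was at 6 h with IL-7 for 36 of the 42 members. The lowest was in the groups with 4OHT and no IL-7 for all 42, at 24 h for 28 and at 6 h for 14. These counts were not made over all genes. All 42 members were lower in experiment 2 than in experiment 1 at time 0 (median -0.23) and at 6 h with IL-7 (median -0.21), against medians of -0.04 and -0.01 over all genes. At 24 h with IL-7 and 4OHT, 19 members were higher in experiment 2.

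**Figure D1:**
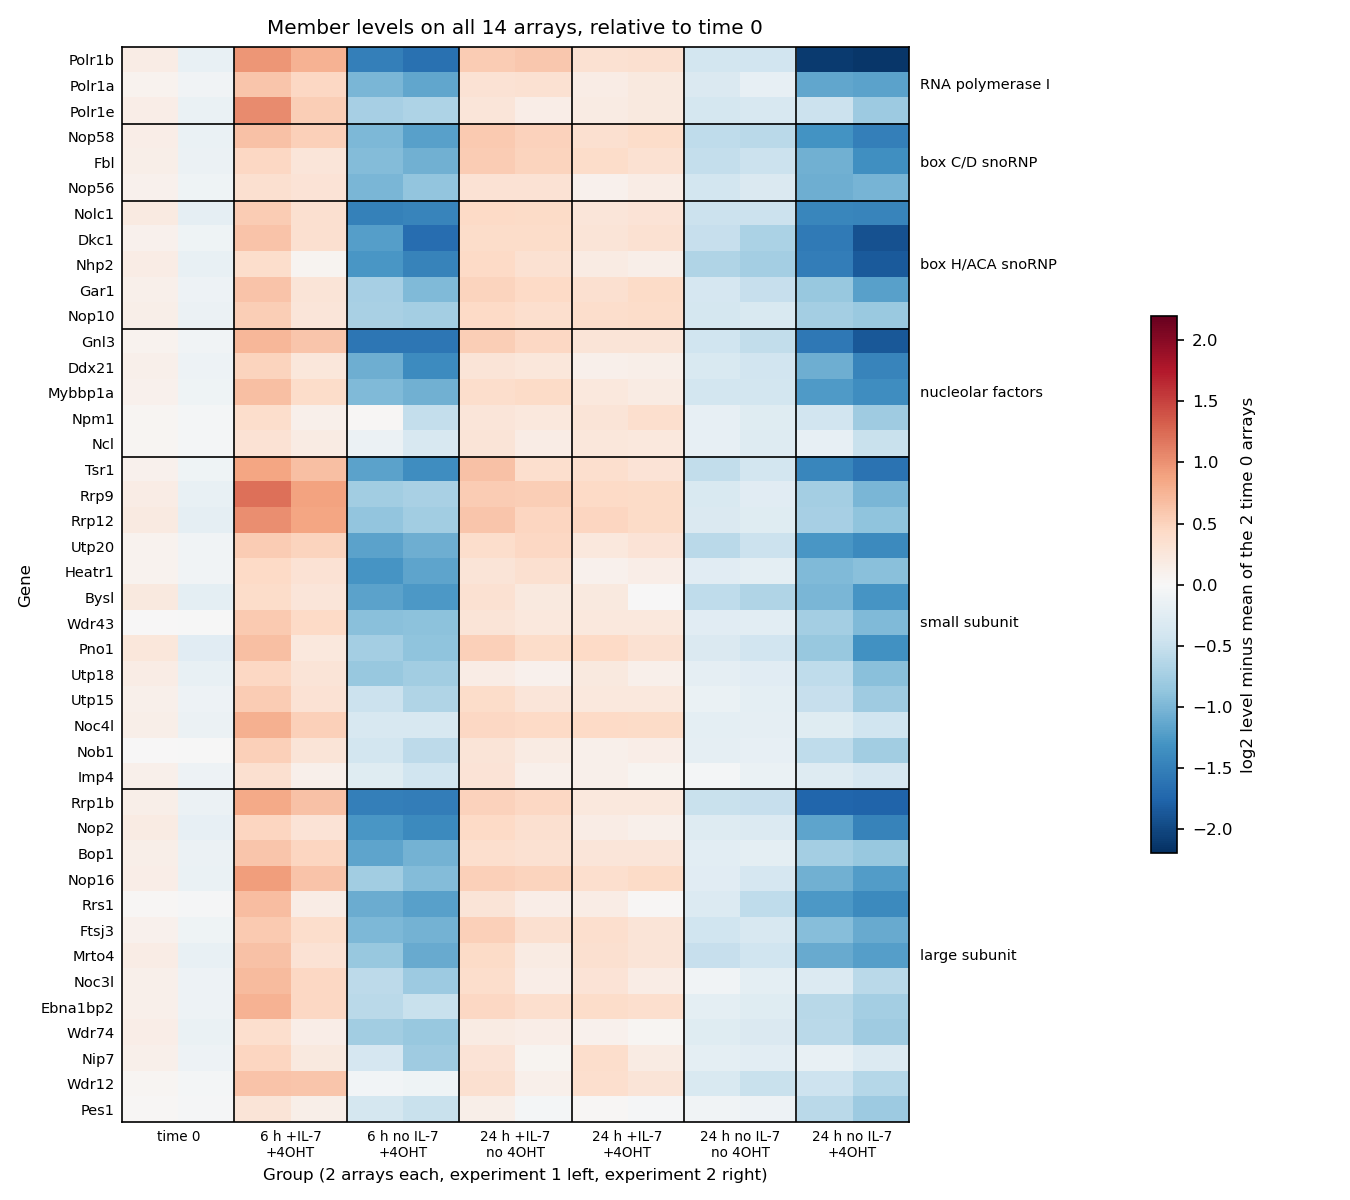
Log2 level of each of the 42 members on the 14 arrays minus the mean of the 2 time 0 arrays, with genes in rows by role and arrays in columns by group (experiment 1 left, experiment 2 right). Most cells of the columns without IL-7 are below time 0 and those at 6 h with IL-7 are above it. The palest rows without IL-7 include Ncl, Npm1 and Imp4.

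IL-7 withdrawal for 6 h under 4OHT lowered nearly all members. Of 42 members 41 fell and none rose, and Npm1 was at -0.50 ± 0.16 (adjusted p = 0.0645, and 0.00976 with the experiment as a block, where all 42 fell). Over all genes 7.48% fell in this comparison. The median difference of the members was -1.49, from -2.44 to -0.49, beside a median of 0.03 over all genes. In 34 members the change was at least 2-fold, a count not made over all genes. The 2 experiments gave member medians of -1.57 and -1.38, and all 42 members had the same sign in both. Leaving out any 1 of the 4 arrays left 40 to 42 members lower.

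**Figure D2:**
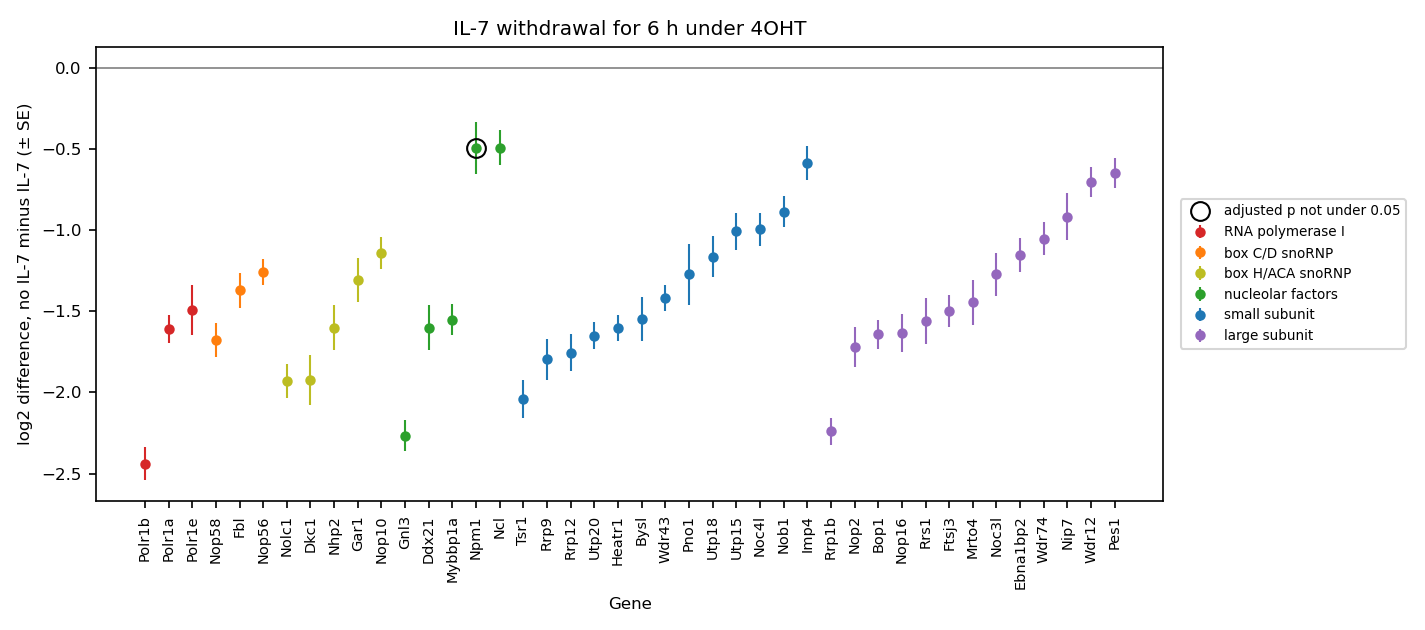
Log2 difference of each member at 6 h under 4OHT, without IL-7 minus with IL-7, with SE as bars and colours for the 6 role groups. Polr1b, at -2.44, lies lowest, and Npm1, ringed, is the member that did not pass.

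RNA polymerase I was represented by its largest catalytic subunits Polr1a and Polr1b and by Polr1e, a smaller associated subunit, and all 3 fell on withdrawal at 6 h. Polr1b was read, in experiments 1 and 2, at 10.64 and 10.33 at time 0, at 11.45 and 11.25 at 6 h with IL-7 and at 8.98 and 8.84 at 6 h without it. Its 24 h pairs were 11.04 and 11.08 with IL-7 alone, 10.82 and 10.84 with IL-7 and 4OHT, 10.09 and 10.06 with neither, and 8.38 and 8.34 with 4OHT and no IL-7. No pair of Polr1b readings without IL-7 overlapped a pair with IL-7, and the last group was the lowest. Polr1b changed by -2.44 ± 0.10 at 6 h (adjusted p = 7.02e-08), a 5.43-fold fall. Polr1e was read at 9.33 and 9.03 at time 0, 10.21 and 9.71 at 6 h with IL-7 and 8.44 and 8.50 without it. At 24 h its pairs were 9.45 and 9.32 with IL-7 alone, 9.37 and 9.39 with IL-7 and 4OHT, 8.78 and 8.83 with neither, and 8.71 and 8.38 with 4OHT and no IL-7. Unlike for Polr1b, the readings of Polr1e at 24 h without IL-7 differed little with and without 4OHT. Polr1e fell by 1.49 ± 0.15 at 6 h (adjusted p = 4.08e-05), and Polr1a by 1.61 ± 0.09 (adjusted p = 4.37e-07).

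The box C/D snoRNP, which methylates ribosomal RNA, has the methyltransferase Fbl and the scaffold proteins Nop56 and Nop58 among its core proteins, and all 3 fell. Nop58 was read at 10.89 and 10.61 at time 0, 11.40 and 11.27 at 6 h with IL-7 and 9.76 and 9.56 without it. At 24 h it stood at 11.33 and 11.26 with IL-7 alone, 11.10 and 11.15 with IL-7 and 4OHT, 10.20 and 10.16 with neither, and 9.44 and 9.25 with 4OHT and no IL-7. Every reading of Nop58 without IL-7 was below both time 0 readings, and every reading with IL-7 was above them. Nop58 fell by 1.67 ± 0.10 at 6 h (adjusted p = 1.27e-06). For Nop56 the readings were 12.26 and 12.08 at time 0, 12.52 and 12.46 at 6 h with IL-7, and 11.16 and 11.31 without it. Its 24 h pairs were 12.49 and 12.48, 12.27 and 12.34, 11.76 and 11.85, and 11.10 and 11.14, in the same order of groups. Nop56 at 24 h with IL-7 and 4OHT thus ended above, but close to, its higher time 0 reading. Nop56 fell by 1.26 ± 0.08 (adjusted p = 1.31e-06) and Fbl by 1.37 ± 0.11 (adjusted p = 5.75e-06).

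The box H/ACA snoRNP converts uridine to pseudouridine in ribosomal RNA with its catalytic subunit Dkc1 and the partners Gar1, Nhp2 and Nop10. Nolc1 is a chaperone of both kinds of snoRNP. All 5 fell on withdrawal at 6 h, from Nolc1 at -1.93 ± 0.11 (adjusted p = 5.96e-07) and Dkc1 at -1.93 ± 0.15 (adjusted p = 6.01e-06) to Nop10 at -1.14 ± 0.10 (adjusted p = 9.76e-06). Nolc1 was read at 10.58 and 10.19 at time 0, 10.94 and 10.74 at 6 h with IL-7 and 8.89 and 8.93 without it. At 24 h the pairs of Nolc1 were 10.83 and 10.81 with IL-7 alone, 10.65 and 10.69 with IL-7 and 4OHT, 9.90 and 9.92 with neither, and 8.94 and 8.93 with 4OHT and no IL-7. The Nolc1 readings with 4OHT and no IL-7 were close at 6 h and 24 h, with the 24 h pair slightly higher. Nop10 was at 11.56 and 11.32 at time 0, 11.99 and 11.71 at 6 h with IL-7 and 10.73 and 10.69 without it. At 24 h Nop10 was at 11.87 and 11.81, 11.82 and 11.84, 11.06 and 11.11, and 10.69 and 10.62, again in that order. Gar1 (-1.31 ± 0.14) and Nhp2 (-1.60 ± 0.14) lay between them.

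Among nucleolar proteins with several roles, the abundant histone and RNA chaperones Ncl and Npm1 stood apart from the other 3. Gnl3, a nucleolar GTPase also known as nucleostemin, was read at 10.57 and 10.43 at time 0, 11.22 and 11.11 at 6 h with IL-7 and 8.90 and 8.90 without it. Its 24 h readings were 11.04 and 10.95 with IL-7 alone, 10.78 and 10.79 with IL-7 and 4OHT, 10.06 and 9.96 with neither, and 8.93 and 8.64 with 4OHT and no IL-7. No reading of Gnl3 without IL-7 reached a reading with it, and it fell by 2.27 ± 0.10 at 6 h (adjusted p = 8.68e-08). Ncl was read at 12.39 and 12.31 at time 0, 12.67 and 12.53 at 6 h with IL-7, and 12.22 and 12.00 without it. At 24 h Ncl was at 12.63 and 12.51, 12.60 and 12.59, 12.17 and 12.07, and 12.16 and 11.86. The pairs of Ncl at 24 h without IL-7 overlapped in range with and without 4OHT. Ncl fell by 0.49 ± 0.11 at 6 h (adjusted p = 0.00792). The 95% interval of the Npm1 difference ran from -0.85 to -0.14. Npm1 has many processed pseudogenes in the mouse, and cross-hybridization was not tested. The RNA helicase Ddx21 (-1.60 ± 0.14) and the MYB-binding protein Mybbp1a (-1.55 ± 0.09), a regulator of ribosomal DNA transcription, fell as well.

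All 13 small subunit members, most of them parts of the processome that matures the small subunit RNA, fell at 6 h, with a median of -1.42. Tsr1, a GTPase-like factor of late cytoplasmic maturation, was read at 9.85 and 9.66 at time 0, 10.62 and 10.41 at 6 h with IL-7 and 8.57 and 8.39 without it. At 24 h Tsr1 was at 10.39 and 10.13 with IL-7 alone, 10.12 and 10.06 with IL-7 and 4OHT, 9.20 and 9.36 with neither, and 8.31 and 8.13 with 4OHT and no IL-7. The groups of Tsr1 without IL-7 did not overlap those with it, and it fell by 2.04 ± 0.12 (adjusted p = 6.44e-07). Imp4, a protein of the U3 snoRNP, was read at 11.67 and 11.46 at time 0, 11.92 and 11.68 at 6 h with IL-7 and 11.30 and 11.13 without it. At 24 h Imp4 was at 11.87 and 11.68, 11.67 and 11.62, 11.52 and 11.42, and 11.28 and 11.20. Imp4 had the narrowest span of its role group and still fell, by 0.59 ± 0.11 (adjusted p = 0.00243). The U3-associated Rrp9 (-1.80 ± 0.13), Rrp12 (-1.76 ± 0.12), Utp20 (-1.65 ± 0.08) and Heatr1 (-1.60 ± 0.08) were among the larger falls, and Nob1 (-0.89 ± 0.10), the endonuclease of the last cut of the small subunit RNA, was among the smaller.

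All 13 large subunit members fell too, with a median of -1.44. Rrp1b, a nucleolar protein that also recruits a phosphatase, was read at 9.65 and 9.41 at time 0, 10.36 and 10.17 at 6 h with IL-7 and 8.04 and 8.01 without it. At 24 h Rrp1b was at 10.03 and 9.98 with IL-7 alone, 9.77 and 9.77 with IL-7 and 4OHT, 9.04 and 9.02 with neither, and 7.78 and 7.78 with 4OHT and no IL-7. The 7 pairs of Rrp1b did not overlap, and the 6 h fall was 2.24 ± 0.09 (adjusted p = 4.65e-08). Bop1, Pes1 and Wdr12 form a complex needed for the large subunit, and they differed in size of change, at -1.64 ± 0.09, -0.65 ± 0.09 and -0.70 ± 0.09 (adjusted p of 4.78e-07, 0.000462 and 0.000281). Pes1 was read at 10.63 and 10.57 at time 0, 10.90 and 10.73 at 6 h with IL-7 and 10.21 and 10.11 without it. At 24 h Pes1 was at 10.74 and 10.55, 10.62 and 10.59, 10.53 and 10.49, and 10.02 and 9.80. Without IL-7 and 4OHT at 24 h, Pes1 thus lay just below its time 0 pair. The difference in size between Bop1 and its partners was not tested.

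**Figure D3:**
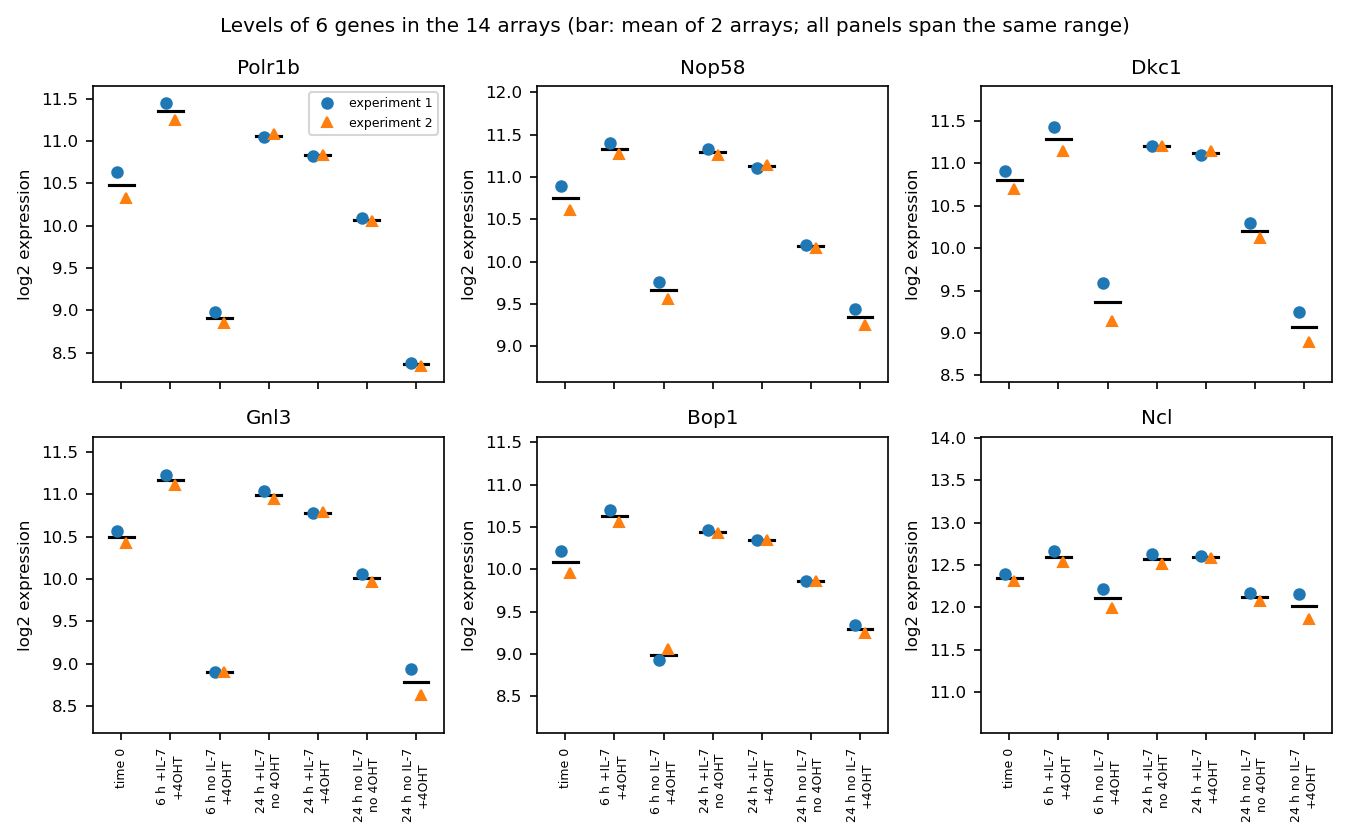
Log2 expression of Polr1b, Nop58, Dkc1, Gnl3, Bop1 and Ncl in the 7 groups, with circles for experiment 1, triangles for experiment 2, bars for the mean of the 2 arrays and the same span on every axis. Polr1b and Gnl3 fall below 9 at 6 h without IL-7, while Ncl stays between 11.86 and 12.67 on all arrays.

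Because the members moved together, their promoters were searched for the E-box CACGTG, the letters bound by MYC and its partner MAX and by other factors of that class. The motif is its own reverse complement, so it reads alike on both strands. RefSeq's table (GRCm38.p6) holds 300 bases per start, from 250 before it to 50 from it on, for 37 of the 42 members. At least 1 CACGTG was present for 9 of the 37, or 24.3%, beside 18.3% of 71 other genes of the pathway and 9.5% of the 15614 array genes in the table. Among 6448 genes whose share of G and C lay in the middle range of the members it was 10.4%. The 9 members with the motif had a median 6 h difference of -1.42 (-2.04 to -0.59), and the 28 without it -1.49 (-2.44 to -0.49). These are descriptions of letters in a window, and no binding was measured. Shown are the 4 members with the largest falls whose motif lies in the stretch from 130 bases before the start to 30 from it on, and then Polr1b, which had the largest fall and no such letters in its window. They are 5′ to 3′ on the gene's strand, with the E-box in capitals.
Tsr1, chr11:74897950-74898109, plus strand: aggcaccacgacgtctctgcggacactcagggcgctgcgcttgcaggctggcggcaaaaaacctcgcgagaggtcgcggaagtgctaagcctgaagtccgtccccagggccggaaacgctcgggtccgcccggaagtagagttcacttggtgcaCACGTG
Nop2, chr6:125131753-125131912, plus strand: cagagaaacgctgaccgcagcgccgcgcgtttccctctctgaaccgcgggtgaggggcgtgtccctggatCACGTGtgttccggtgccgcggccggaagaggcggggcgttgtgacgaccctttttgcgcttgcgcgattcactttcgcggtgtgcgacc
Wdr43, chr17:71616085-71616244, plus strand: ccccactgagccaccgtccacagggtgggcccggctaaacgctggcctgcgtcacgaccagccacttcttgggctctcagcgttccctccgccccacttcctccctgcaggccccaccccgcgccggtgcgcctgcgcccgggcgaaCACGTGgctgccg
Utp18, chr11:93885737-93885896, minus strand: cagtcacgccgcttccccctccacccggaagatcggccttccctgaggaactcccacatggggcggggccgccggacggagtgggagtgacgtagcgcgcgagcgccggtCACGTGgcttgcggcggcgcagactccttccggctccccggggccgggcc
Polr1b, chr2:129100866-129101025, plus strand: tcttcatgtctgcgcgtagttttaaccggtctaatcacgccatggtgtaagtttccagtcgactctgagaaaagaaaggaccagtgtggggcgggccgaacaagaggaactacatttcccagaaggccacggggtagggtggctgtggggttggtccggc
In Nop2, which encodes a methyltransferase of the large subunit RNA, and in Utp18, a processome protein, the E-box lies before the start, and in Tsr1 and in Wdr43, another processome protein, it lies just after it. These 4 genes differed by -2.04, -1.72, -1.42 and -1.16 at 6 h without IL-7 in the order of Tsr1, Nop2, Wdr43 and Utp18. Utp20 and Mybbp1a fell further than Wdr43, but their motifs lie beyond the stretch shown.

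In the presence of IL-7, culture with 4OHT for 6 h raised 25 of the 42 members above time 0, and none fell. Over all genes 3.92% rose. The member median was 0.47 (0.21 to 1.05), beside -0.02 for all genes, and the experiments gave 0.49 and 0.48. All 3 RNA polymerase I members rose, with Polr1b at 0.87 ± 0.10 (adjusted p = 0.000165). The largest rises were in Rrp9 (1.05 ± 0.13, adjusted p = 0.000226) and Rrp12 (0.94 ± 0.12, adjusted p = 0.000253). Dkc1 (0.49 ± 0.15), Nhp2 (0.22 ± 0.14), Ncl (0.25 ± 0.11) and Npm1 (0.24 ± 0.16) did not pass, but Dkc1 and Ncl did with the experiment as a block (adjusted p of 0.00588 and 0.0328). With the experiment as a block 40 members rose, on the compared arrays only 11, and 16 rose without either the 6 h array of experiment 1 or the experiment 2 array at time 0. With the 24 h group with IL-7 and no 4OHT as the reference, a choice made after the data were seen, the median was 0.15 and 3 members were higher: Polr1e, Rrp9 and Wdr12. Shares over all genes were not taken for this reference or for the other alternative settings, so these counts have no background beside them.

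After 24 h with IL-7 and no 4OHT the levels were again above time 0, by a median of 0.37 (0.04 to 0.58). Here 13 members rose and none fell, beside 0.737% of all genes that rose. Polr1b (0.58 ± 0.10, adjusted p = 0.0119), Rrp9 (0.55 ± 0.13, adjusted p = 0.0402), Nop58 (0.54 ± 0.10, adjusted p = 0.0199), Rrp12 (0.53 ± 0.12, adjusted p = 0.0313) and Fbl (0.53 ± 0.11, adjusted p = 0.0254) were the largest of them. None of the 5 box H/ACA and Nolc1 members passed, with 0.39 to 0.46, and all 5 passed with the experiment as a block. This count was the least stable of the larger ones. It was 30 with the experiment as a block, 4 with arrays centred on their medians and 0 on the compared arrays only. Shares over all genes under these settings were not taken. In the fit over all arrays, 30 members were at an unadjusted p under 0.05, beside 3349 of all 19938 genes. Without the time 0 array of experiment 2, or the 24 h array of experiment 2, no member passed in limma's test, and without the 24 h array of experiment 1 there were 2, and without the time 0 array of experiment 1 there were 20. The experiments gave medians of 0.27 and 0.46.

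At 24 h, IL-7 withdrawal without 4OHT lowered 36 members and raised none, where 8.78% of all genes fell. The median was -0.69 (-1.11 to -0.13), beside -0.01 for all genes, and -0.72 and -0.66 in the experiments. Nop58 (-1.11 ± 0.10, adjusted p = 3.02e-05), Nhp2 (-1.10 ± 0.14, adjusted p = 0.000168) and Fbl (-1.03 ± 0.11, adjusted p = 5.77e-05) fell by over 2-fold. The 6 that did not pass were Npm1 (-0.48), Nip7 (-0.40), Noc3l (-0.40), Utp18 (-0.35), Imp4 (-0.30) and Pes1 (-0.13). With the experiment as a block 41 members fell, and of these 6 genes Pes1 alone did not pass. Nip7 and Noc3l are assembly factors of the large subunit. With 4OHT in both groups, IL-7 withdrawal for 24 h lowered all 42 members, where 11.5% of all genes fell, by a median of -1.29 (-2.47 to -0.41) and in 29 members by at least 2-fold. The 2-fold count was not made over all genes. Polr1b (-2.47 ± 0.10, adjusted p = 6.14e-08) and Dkc1 (-2.05 ± 0.15, adjusted p = 2.46e-06) fell furthest, and Npm1 now fell by 0.93 ± 0.16 (adjusted p = 0.00116). The experiments gave medians of -1.19 and -1.35.

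4OHT for 24 h had different values with and without IL-7. With IL-7 present no member passed in limma's test, where 9.16% of all genes changed in either direction. The member median was -0.11 (-0.25 to 0.10), with -0.14 and -0.07 in the experiments. At an unadjusted p under 0.05 were 5 of the 42 members, beside 4572 of all 19938 genes. The 95% intervals of the 42 differences lay between -0.54 and 0.43, so that larger shifts of a member lay outside its interval. With the experiment as a block, or after renewed quantile normalization, 1 member passed, Rrp1b, at -0.24 and -0.30. Without IL-7, 4OHT lowered 34 members and raised none, where 8.17% of all genes fell. The median was -0.62 (-1.71 to -0.01), with -0.52 and -0.72 in the experiments. Polr1b fell by 1.71 ± 0.10 (adjusted p = 3.69e-07), Rrp1b by 1.25 ± 0.09 (adjusted p = 1.2e-06), Gnl3 by 1.23 ± 0.10 (adjusted p = 3.4e-06) and Dkc1 by 1.14 ± 0.15 (adjusted p = 0.000255). The 8 members that did not pass were Polr1e (-0.26), Ncl (-0.11), Npm1 (-0.38), Imp4 (-0.23), Noc4l (-0.14), Wdr12 (-0.13), Nip7 (-0.01) and Noc3l (-0.30). With the experiment as a block 37 fell, now with Npm1, Imp4 and Noc3l (adjusted p of 0.0372, 0.0206 and 0.00262). Noc4l is a small subunit factor.

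The test of this difference is the interaction, the withdrawal effect with 4OHT minus that without it. All 42 members were below 0, with a median of -0.53 (-1.48 to -0.11) beside 0.03 for all genes, and 9 passed, all lower, where 0.617% of all genes did. The 9 were Polr1b (-1.48 ± 0.14, adjusted p = 0.00083), Rrp1b (-1.02 ± 0.12, adjusted p = 0.00273), Gnl3 (-1.02 ± 0.14, adjusted p = 0.00529), Tsr1 (-0.89 ± 0.16, adjusted p = 0.0326), Nolc1 (-0.82 ± 0.15, adjusted p = 0.0326), Polr1a (-0.77 ± 0.12, adjusted p = 0.012), Mybbp1a (-0.71 ± 0.13), Utp20 (-0.65 ± 0.12) and Wdr43 (-0.60 ± 0.11). Polr1e, at -0.25 ± 0.22, did not pass (adjusted p = 0.792). The experiment as a block gave 22 members lower, and the share over all genes in that fit was not taken. Leaving out the array with 4OHT and no IL-7 of experiment 1 left 9, and leaving out each of the other 7 arrays at 24 h left 3 to 5. The experiments gave medians of -0.41 and -0.69.

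**Figure D4:**
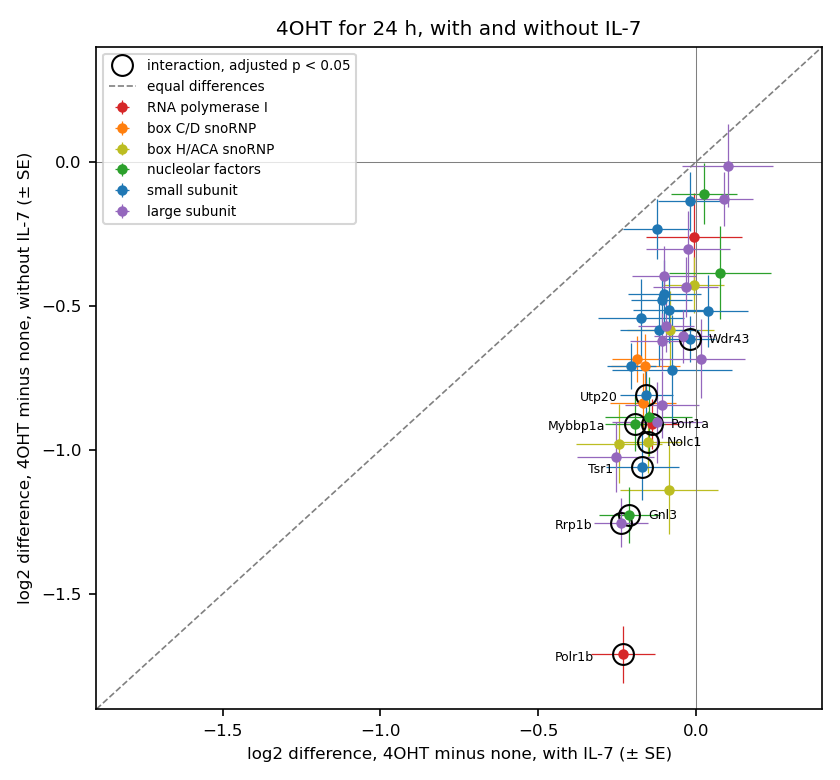
Log2 difference of each member for 4OHT minus none at 24 h, with IL-7 on the horizontal and without IL-7 on the vertical axis, with SE as bars, colours for role groups and rings for the 9 members that passed the interaction test. All 42 points lie under the dashed line of equal differences, and Polr1b, at -0.23 and -1.71, lies farthest from it.

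Between 6 h and 24 h without IL-7 under 4OHT the members stayed low. The median difference was -0.12 (-0.55 to 0.34), and 4 members passed, beside 11.9% of all genes in either direction. Polr1b (-0.55 ± 0.10, adjusted p = 0.00318) and Wdr12 (-0.47 ± 0.09, adjusted p = 0.00572) fell further, while Heatr1 (0.28 ± 0.08, adjusted p = 0.037) and Bop1 (0.30 ± 0.09, adjusted p = 0.046) rose. Only the 2 falls passed on the compared arrays, 4 members rose and 8 fell with the experiment as a block, and without the 24 h array of experiment 2 or 1 the count was 1 or 2. The withdrawal effect under 4OHT at 24 h minus that at 6 h had a member median of 0.14 (-0.44 to 0.66), with 0.28 and -0.01 in the experiments. Heatr1 (0.55 ± 0.11, adjusted p = 0.0129) and Bop1 (0.59 ± 0.13, adjusted p = 0.0177) passed, both with a smaller fall at 24 h than at 6 h. Over all genes 1.36% were higher and 5.01% passed in either direction, beside 4.76% of the members. Heatr1 was read at 9.24 and 9.39 at 6 h without IL-7 and at 9.57 and 9.63 at 24 h with 4OHT and no IL-7, against 10.98 and 10.86, and 10.63 and 10.68, in the matching groups with IL-7. Both groups of Heatr1 without IL-7 thus stayed below those with it. The interaction count of 2 became 6 with the block, 5 after renewed quantile normalization, and 0 without the 24 h array with IL-7 and 4OHT of experiment 1 or without either 6 h array of experiment 1. It was 1 without the other 24 h array with IL-7 and 4OHT or the 24 h array without IL-7 of experiment 1, and 3 without the 6 h array with IL-7 of experiment 2.

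Other genes of the pathway had medians of the same sign as the members and nearer to 0 in 8 of the 10 comparisons. Members and other genes were listed with earlier results of these data known, and the part of that choice in this contrast was not tested. A list of 91 further ribosome biogenesis and RNA polymerase I genes had 88 with a probe set. On IL-7 withdrawal at 6 h 68 fell and 2 rose, with a median of -0.71. In either direction 79.5% of these genes passed, beside 14.3% of all genes. At 24 h 48 fell and 2 rose without 4OHT (median -0.34), and 61 fell and 1 rose with it (median -0.48). Passing in either direction were 56.8% and 70.5%, beside 20% and 24.3% of all genes. For 4OHT at 24 h the counts were 33 lower and 2 higher without IL-7 and 3 higher with it, with medians of -0.22 and -0.05. Without IL-7, 39.8% passed, beside 15.3% of all genes. With IL-7, 3.41% passed, below the 9.16% of all genes. At 6 h against time 0, 33 rose and none fell (median 0.28), and at 24 h of culture 5 rose (median 0.18). Passing were 37.5% and 5.68%, beside 8.77% and 3.09% of all genes in either direction. In the interaction at 24 h 2 passed, both lower: Mdn1, a giant ATPase of large subunit assembly, at -1.17 ± 0.19 (adjusted p = 0.0172), and Nat10, an RNA acetyltransferase, at -0.66 ± 0.12 (adjusted p = 0.0266). Mdn1 and Nat10 were 2.27% of these genes, beside 0.687% of all genes in either direction. The other 2 of the 10 comparisons differed from the 8 above. Between 6 h and 24 h without IL-7 under 4OHT the median of the other genes was 0.06, with 1 higher and 3 lower, beside -0.12 for the members. Passing were 4.55% of the other genes, below the 11.9% of all genes. The withdrawal effect at 24 h minus 6 h had a median of 0.19, with 6 higher, beside 0.14. Here 6.82% of the other genes passed, near the 5.01% of all genes in either direction. The largest falls at 6 h without IL-7 were Mdn1 (-2.30 ± 0.14), Nat10 (-1.91 ± 0.08), Rcl1 (-1.70 ± 0.14), Wdr75 (-1.53 ± 0.09) and Mphosph10 (-1.48 ± 0.13), and the last 3 belong to the processome.

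The general factors of RNA polymerase I moved in different directions. Ttf1, which terminates transcription of ribosomal DNA, was higher without IL-7 at 6 h (0.24 ± 0.07, adjusted p = 0.0401) and at 24 h (0.37 ± 0.07, adjusted p = 0.00259), and higher with 4OHT at 24 h both with IL-7 (0.35 ± 0.07, adjusted p = 0.00673) and without it (0.29 ± 0.07, adjusted p = 0.0134). Taf1b, a subunit of the promoter selectivity factor, was higher with 4OHT at 24 h in the same 2 comparisons (0.34 ± 0.09 and 0.40 ± 0.09, adjusted p of 0.0301 and 0.00719). Ubtf, the upstream binding factor, was at -0.16 ± 0.06 at 6 h without IL-7 (adjusted p = 0.126). Rrn3, which couples the polymerase to its promoter, fell there by 0.62 ± 0.08 (adjusted p = 0.000325). Of the other subunits of the selectivity factor, Taf1a (-0.62 ± 0.07, adjusted p = 7.36e-05) and Taf1d (-0.57 ± 0.08, adjusted p = 0.000659) fell there, and Taf1c (-0.20 ± 0.08) and Taf1b (0.16 ± 0.09) did not pass. Of the other polymerase subunits in that comparison Polr1c (-0.38 ± 0.10), Polr1f (-0.58 ± 0.13) and Polr1g (-0.73 ± 0.11) fell, and Polr1d (-0.30 ± 0.12) and Polr1h (0.13 ± 0.11) did not pass. Zfp622, the mouse relative of a yeast factor of cytoplasmic large subunit maturation, was higher at 6 h without IL-7, by 0.26 ± 0.07 (adjusted p = 0.0356).

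Myc readings are given beside those of the members because of its known role in the pathway. Myc was at 12.55 and 12.49 at time 0, 13.30 and 13.18 at 6 h with IL-7 and 11.31 and 10.92 without it. At 24 h Myc was at 12.88 and 12.86 with IL-7 alone, 12.63 and 12.66 with IL-7 and 4OHT, 12.10 and 12.05 with neither, and 9.31 and 9.43 with 4OHT and no IL-7. Myc thus had its lowest pair in the last group, where 28 members had their lowest mean. The other 14 members had theirs at 6 h with 4OHT and no IL-7. A link between Myc and the member levels was not tested. Its interaction at 24 h was -2.47 ± 0.15 (adjusted p = 3.05e-05). Between 6 h and 24 h without IL-7 under 4OHT, Myc fell by 1.74 ± 0.11 (adjusted p = 2.67e-06), beside the member median of -0.12. Mycn, a relative of Myc, was at 8.36 and 8.43 at 6 h with IL-7 and between 6.86 and 7.38 on the other 12 arrays.

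**Figure D5:**
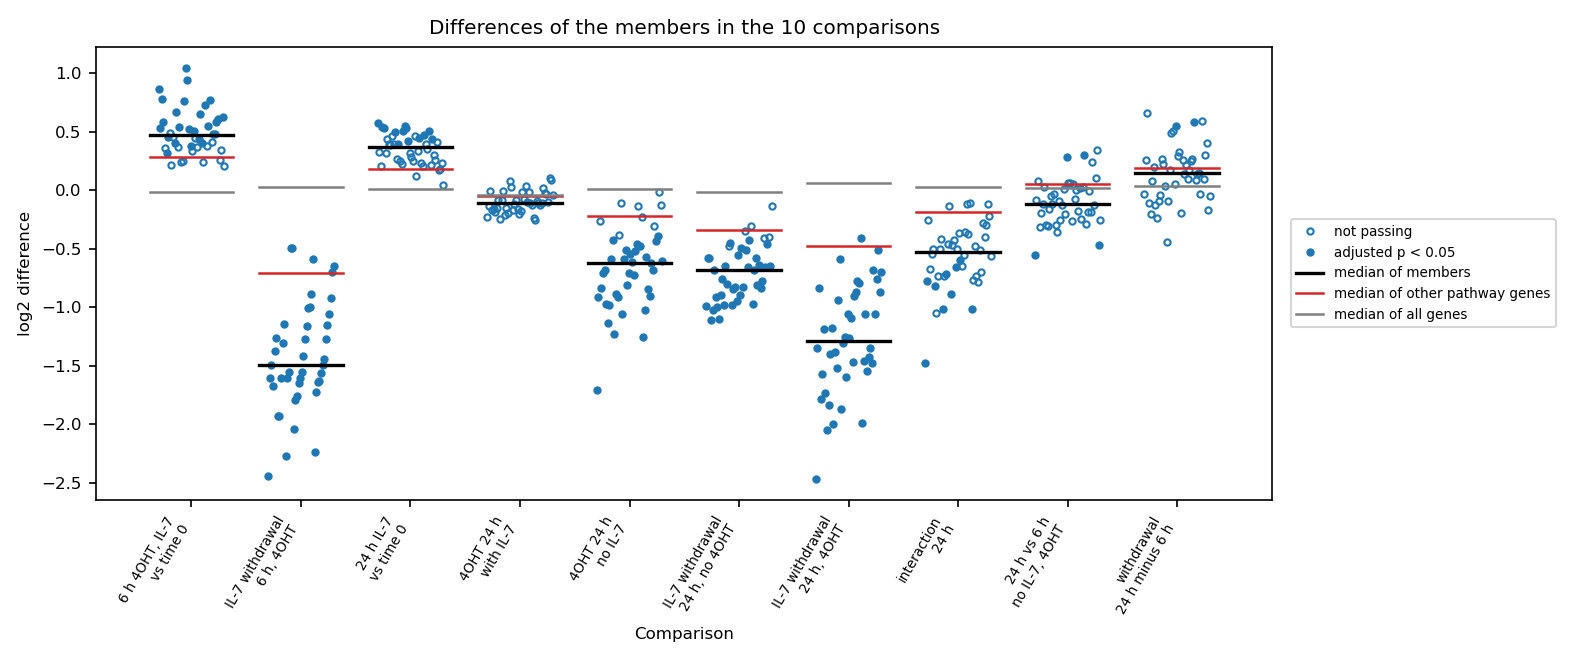
Log2 differences of the 42 members (points, filled where adjusted p is under 0.05) in the 10 comparisons, with bars for the medians of the members, of 88 other pathway genes and of all genes. The member median is lowest for IL-7 withdrawal at 6 h (-1.49) and lies near 0 for 4OHT with IL-7 (-0.11).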

How the data were processed

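Expression was measured in 14 arrays of 1 mouse cell line. Per the labels' protocols, biotin-labelled single-strand targets were made from 150 ng of total RNA. Per the submitters' processing notes, the values were made with Affymetrix Expression Console 1.1 and RMA, and the authors deposited log2 values for 35556 probe sets. The build behind the array annotation was not given in the sources used here, and promoter windows are RefSeq's on GRCm38.p6. Scanner signals were not used, so detection limits were not read.

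Of the probe sets 21789 carried 1 symbol in the platform annotation, 1621 several and 12146 were unlisted. The brightest 1-symbol probe set per gene gave 19938 genes, and 3 members had 2 probe sets. Differences were tested two-sided with limma 3.58.1 (R 4.3.3) in a joint fit of the 14 arrays, with 1 coefficient per group (7 residual and 4.83 prior degrees of freedom), adjusted by Benjamini-Hochberg over all genes. The fit was tested on simulated data. The members, role groups and lists were chosen with earlier results of these data known. All members may be named. Values on every array are given for the members with the largest and smallest 6 h withdrawal change of each role group, and other pathway genes are named for the 5 largest passing changes or a passing change opposite to most, while further polymerase factors were named after their values were seen. Same-numbered arrays come from the same experiment per the labels. Across the 21 pairs of groups, the correlation of their deviations from the group means was 0.124 to 0.631, so the experiment number pairs them. The fit without that block was the chosen design. P-values measure the spread between arrays of 2 experiments. Alternatives were the block, renewed quantile normalization, median centring, no dim genes, the mean of probe sets, compared arrays only and leaving out each array.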

Additional observations from a re-analysis of the deposited data

Results flagged for a closer look

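The interaction of 4OHT and IL-7 withdrawal at 24 h passed limma's test of the difference between the 2 withdrawal effects in 9 members. Their values were -1.48 for Polr1b, -1.02 for Rrp1b, -1.02 for Gnl3, -0.89 for Tsr1, -0.82 for Nolc1, -0.77 for Polr1a, -0.71 for Mybbp1a, -0.65 for Utp20 and -0.60 for Wdr43. In each of them the withdrawal fall was larger with 4OHT. The withdrawal effect under 4OHT differed between 24 h and 6 h in 2 members, Heatr1 (0.55) and Bop1 (0.59). In both the smaller fall was at 24 h. They were 4.76% of the members, while 5.01% of all genes passed in either direction. Groups of 2 arrays are too small for a test of single outlying arrays.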

How the results depend on the processing

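The 6 h withdrawal count (41) and the 24 h withdrawal counts without and with 4OHT (36 and 42) moved by less than 1.5 times under every alternative run, as did the count for 4OHT without IL-7 (34), and no member that passed changed sign in any alternative. With the experiment number as a replicate block, members passing were 40 at 6 h against time 0, 30 after 24 h of culture, 1 for 4OHT with IL-7, 22 in the interaction at 24 h, 12 between 6 h and 24 h without IL-7, and 6 for the withdrawal effect at 24 h minus 6 h. It gave 42 for withdrawal at 6 h, 41 and 42 for withdrawal at 24 h without and with 4OHT, and 37 for 4OHT without IL-7, and no member that passed was lost under it. On the compared arrays only, they were 11 at 6 h against time 0 and 0 after 24 h of culture (limma). They were 2 between 6 h and 24 h. After 24 h of culture, 30 members and 3349 of all 19938 genes had an unadjusted p under 0.05 in the fit over all arrays. Renewed quantile normalization gave 23 after 24 h of culture, 1 for 4OHT with IL-7 and 5 for the withdrawal effect at 24 h minus 6 h. After 24 h of culture, median centring gave 4 and leaving out dim genes 20. Against the 24 h group with IL-7 alone, added after seeing the data, 3 members passed at 6 h. Leaving out single arrays gave 16 to 29 at 6 h against time 0, 40 to 42 for withdrawal at 6 h, 0 to 20 after 24 h of culture, 0 for 4OHT with IL-7, 23 to 34 for 4OHT without IL-7, 28 to 36 and 40 to 42 for withdrawal at 24 h without and with 4OHT, 3 to 9 in the interaction, 1 to 4 between 6 h and 24 h, and 0 to 3 for the last comparison. An array left alone in its group is assumed to vary like the others. The cause of these shifts was not tested, and neither was the part of the smaller number of arrays or genes in some settings. Shares over all genes under the alternatives were not taken. With 2 arrays a group, small differences of single members are beyond the precision.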

Other observations

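Fbl, Wdr12 and Mrto4 had a second probe set each. The brighter one was used, and whether it lies at the gene itself or cross-hybridizes was not tested. For Fbl the used and the other probe set gave differences of -1.37 and -1.07 on IL-7 withdrawal at 6 h. For Wdr12 they gave -0.70 and -0.81, and for Mrto4, a large subunit factor, -1.44 and -1.40.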
